A study of Homo sapiens with 6 samples.

Results

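The region described is a 1 Mb window near the end of the long arm of human chromosome 8, from 142000001 to 143000000 (hg38), with its sites of thymidine glycol (Tg). It held 31 of the 9373 sites listed for double-knockout cells and 13 of the 3688 sites listed for wild-type cells, counted by the midpoint of each site. The sites were then assigned by midpoint to the bodies of 10 genes of the window: TSNARE1, ARC, JRK, PSCA, LY6K, THEM6, SLURP1, LYPD2, SLURP2 and LYNX1. The window was chosen by its number of double-knockout sites, the second highest of all 1 Mb windows, so its site counts describe the choice and were not tested.

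All samples were HEK293T, a human embryonic kidney line carrying the SV40 large T antigen, with no treatment of the cells. The genotypes were NTHL1-/-,NEIL1-/- (the double knockout) and wild type, each with 2 libraries of genomic DNA labelled in vitro with NTHL1 protein and 1 input library. Whether the double-knockout line is a single clone is not given in the sources used here. Each genotype has 1 deposited site list, so there is no spread between replicates and no test between genotypes, and the input libraries were not analysed here on their own.

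Tg is an oxidised thymidine that distorts DNA and can block DNA polymerases. Cells remove it by base excision repair, which begins when a DNA glycosylase such as NTHL1 or NEIL1 cuts out the damaged base. In the assay, DPC-Seq, NTHL1 is bound covalently to DNA where it removes a base, and the bound fragments are enriched and sequenced. The lists mark DNA and hold no transcript levels, so neither expression of the genes nor the identity of the cells could be checked.

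The name of the region holds ARC and the LY6 genes, but no listed site lay in any of them. Of the 10 genes, 1 held a double-knockout site and 1 a wild-type site, and both times it was TSNARE1. Among all 20037 protein-coding genes, 14.0% held a double-knockout site and 5.88% a wild-type site. The remaining 9 genes are short and together span 72.9 kb. In either list their count of 0 allows up to 3.69 sites (exact 95% Poisson limit). Of the 11197 protein-coding genes of at most 30 kb, 5.98% held a double-knockout site and 2.31% a wild-type site. Short genes without a site are thus usual in both lists, and the count of 0 is no result about these 9 genes.

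Most sites of the window lay outside annotated genes. The share of the whole lists outside genes is not given here, so this is no trait particular to the window. The 31 double-knockout sites comprised 9 in protein-coding genes, 3 in long non-coding RNA genes only and 19 in no annotated gene. The 13 wild-type sites comprised 4, 1 and 8 in the same classes. ADGRB1, which lies between TSNARE1 and ARC and is not among the 10 genes, held more sites than TSNARE1 in both lists. It had 5 double-knockout and 3 wild-type sites in 95.4 kb. No protein-coding gene of the window other than TSNARE1 and ADGRB1, of 16 that touch it, held a site.

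**Figure D1:**
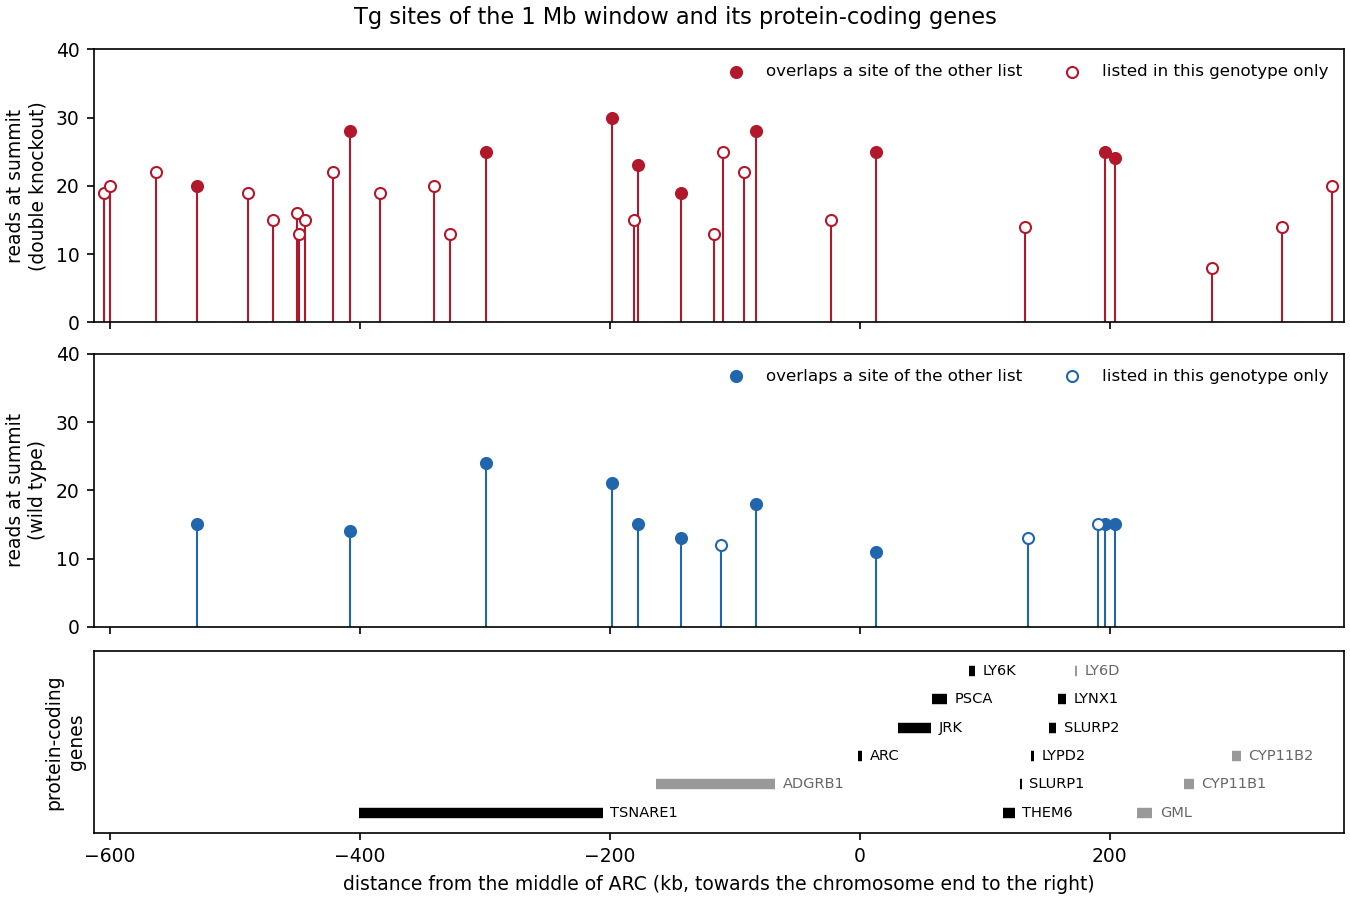
Sites of the window by distance from the middle of ARC (horizontal axis, kb) and reads at the site's summit (vertical axis), with double-knockout sites above, wild-type sites in the middle and protein-coding genes below (black for the 10 genes, grey for others). Filled points overlap a site of the other list; sites crowd to the left of ARC, and only a pair of unshared sites stands over the stretch from JRK to LYNX1.

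TSNARE1 encodes a protein with a t-SNARE domain, the membrane-fusion domain of the syntaxins, and spans 142212080 to 142407029 (194.9 kb). Its 4 double-knockout sites had 19, 20, 13 and 25 reads at the summit in order of position, with widths of 824, 362, 293 and 960 bp. Reads here are whole numbers recovered from the deposited fold enrichment and −log10 p of each site. Unless called scaled or divided, they are not corrected for the depth ratio of 1.69, double knockout over wild type, described below. The fold enrichments of these 4 double-knockout sites over the caller's background, as the authors deposited them, were 4.78, 2.85, 2.60 and 6.86. The single wild-type site had 24 reads, a width of 928 bp and a deposited fold of 9.97. It overlapped the fourth double-knockout site, and the other 3 double-knockout sites had no wild-type partner.

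That shared TSNARE1 site was the strongest of the window in wild type and one of the stronger ones in the double knockout. It ran from 142312874 to 142313833 in the double-knockout list and from 142312936 to 142313863 in the wild-type list. By −log10 q it ranked 1071 of the double-knockout list (11.96) and 106 of the wild-type list (16.3). The third double-knockout site, at 142285060 to 142285352, was at the other extreme, with the weakest −log10 q of the window, 1.54. Above the shared site TSNARE1 held no further site in either list. A gap of 99.6 kb ran from there out of the gene, up to a site 6.43 kb beyond its end.

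Per 100 kb, TSNARE1 carried 2.05 double-knockout sites (exact 95% Poisson interval 0.559 to 5.25) and 0.513 wild-type sites (0.0130 to 2.86). Intervals of this kind cover counting error only. Protein-coding genes with 0.5 to 2 times the length of TSNARE1 number 2945, and 33.0% of them held a double-knockout site and 14.4% a wild-type site. At least 4 double-knockout sites were found in 2.78% of them. Another 8 genes of that length class had the same pair of counts, 4 and 1. The nearest of these in length were ROR2, a receptor for Wnt proteins (chromosome 9, 227.6 kb), ADCY1, an adenylyl cyclase (chromosome 7, 149 kb), and NHSL2 (chromosome X, 242.4 kb).

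Below TSNARE1, away from the chromosome end, lay the part of the window in which the lists differed most in number. The 212.1 kb from the window's edge to the gene held 11 double-knockout sites and 2 wild-type sites. Both wild-type sites were shared, and 9 of the 11 double-knockout sites had no partner. In the whole double-knockout list 6724 of 9373 sites had none. These 9 had 13 to 22 reads and deposited folds of 3.16 to 6.78. Divided by the depth ratio of 1.69 described below, their reads were 7.68 to 13.0. Among them were 3 narrow sites of 464, 313 and 276 bp within 6.02 kb of each other, from 142162674 to 142168690, with 16, 13 and 15 reads. The wild-type list had no site for 121.8 kb around them.

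The long non-coding RNA genes of this stretch held a site each. LINC00051, just below TSNARE1, held a shared site (142204915 to 142205355 in the double knockout) with 28 double-knockout reads and 14 wild-type reads. By −log10 q, 14.4, it was the top double-knockout site of the window. Its neighbour LOC105375792 held 1 double-knockout site of 22 reads and no wild-type site.

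Between TSNARE1 and ADGRB1, a stretch of 42.6 kb held 3 double-knockout and 2 wild-type sites. The shared site next to TSNARE1 was the widest of the window in both lists, 1636 bp (142413464 to 142415099) in the double knockout and 1466 bp in wild type, with 30 and 21 reads. A shared site below ADGRB1, at 142434604 to 142435713 in the double knockout, had 23 double-knockout and 15 wild-type reads. The third, a double-knockout site of 310 bp and 15 reads, lay 2.06 kb from the nearest wild-type site.

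ADGRB1 (142449649 to 142545007) encodes an adhesion G protein-coupled receptor also known as BAI1, which recognises phosphatidylserine on dying cells. In order of position its double-knockout sites had 19, 13, 25, 22 and 28 reads and its wild-type sites 13, 12 and 18 reads. The first and last sites of either list were shared and the sites between them were not. The unshared double-knockout site of 25 reads (142502752 to 142503107) and the unshared wild-type site (142501255 to 142501497) lay 1.26 kb apart. Their backgrounds, recovered from the deposited values, were 5.09 times the lowest of the double-knockout list and 4.03 times the lowest of the wild-type list, among the highest of the window.

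Of the 5036 protein-coding genes with 0.5 to 2 times the length of ADGRB1, 0.377% held at least 5 double-knockout sites and 0.576% at least 3 wild-type sites. ADGRB1 therefore stood nearer to the top of its length class than TSNARE1 did, as a description of genes in a window picked for its sites. Its relative ADGRB2, on chromosome 1, held 1 shared site. ADGRB3, on chromosome 6, held no double-knockout site and 1 wild-type site in 754.2 kb.

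ARC (142611049 to 142614479, 3.43 kb) encodes a neuronal protein made at active synapses that assembles into capsid-like shells. Its nearest site in both lists was the same shared site, 11 kb above the gene in the double knockout and 11.2 kb above it in wild type. There the lists differed more in width than at any other shared site of the window, with 1267 bp and 25 reads in the double knockout (142625479 to 142626745) against 442 bp and 11 reads in wild type. The site ranked 836 of the double-knockout list and 3535 of the 3688 sites of the wild-type list. A further double-knockout site of 15 reads, without partner, lay below ARC at 142589523 to 142589818.

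Immediate early genes such as ARC are switched on quickly by neuronal activity. Of 18 such genes, among them ARC itself, FOS, EGR1, NPAS4 and HOMER1, 0 held a site in either list (exact 95% binomial interval up to 18.5%). Their median length is 6.50 kb, and the interval holds the shares of all protein-coding genes of at most 30 kb, 5.98% in the double knockout and 2.31% in wild type. The count is therefore no result about these genes.

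The stretch from JRK to LYNX1 had the fewest double-knockout sites per 100 kb of the stretches described here. It holds 8 of the 10 genes in 134.2 kb, with 1 double-knockout and 1 wild-type site, and neither site lies in a gene. The largest gap of the double-knockout list in the window, 118.3 kb, covers JRK, PSCA, LY6K, THEM6 and SLURP1 whole. The wild-type list had a gap of 120.7 kb over the same 5 genes. JRK encodes a nuclear DNA-binding protein related to transposases, and lay 16.9 kb from the nearest double-knockout site and 17.6 kb from the nearest wild-type site. PSCA, the prostate stem cell antigen, lay the farthest of the 10 genes from any site, at 43.6 kb in the double knockout and 44.2 kb in wild type.

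LY6 proteins share a small disulfide-rich fold, and are anchored to the cell surface by a lipid or secreted. LY6K, a surface protein best known from testis, had its nearest sites at 39.96 and 41.7 kb in the double-knockout and wild-type lists. SLURP1, a secreted LY6 protein of skin, had sites at 2.69 and 4.42 kb. THEM6, which is named for similarity to thioesterases and is no LY6 gene, had sites at 8.16 and 9.90 kb.

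The sites nearest to SLURP1 and LYPD2 were the same pair, lying between those genes. The double-knockout site (142745091 to 142745602) had 14 reads and the wild-type site (142746824 to 142747214) had 13. They did not overlap, with 1.22 kb between them, so both counted as unshared. From this pair LYPD2, a LY6 family member, was 4.55 kb (double knockout) and 2.94 kb (wild type) away. SLURP2, another secreted LY6 protein, was 18.7 and 17.1 kb away in the same order of lists. LYNX1, a membrane-bound modulator of nicotinic acetylcholine receptors, was 25.6 and 24.0 kb away.

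**Figure D2:**
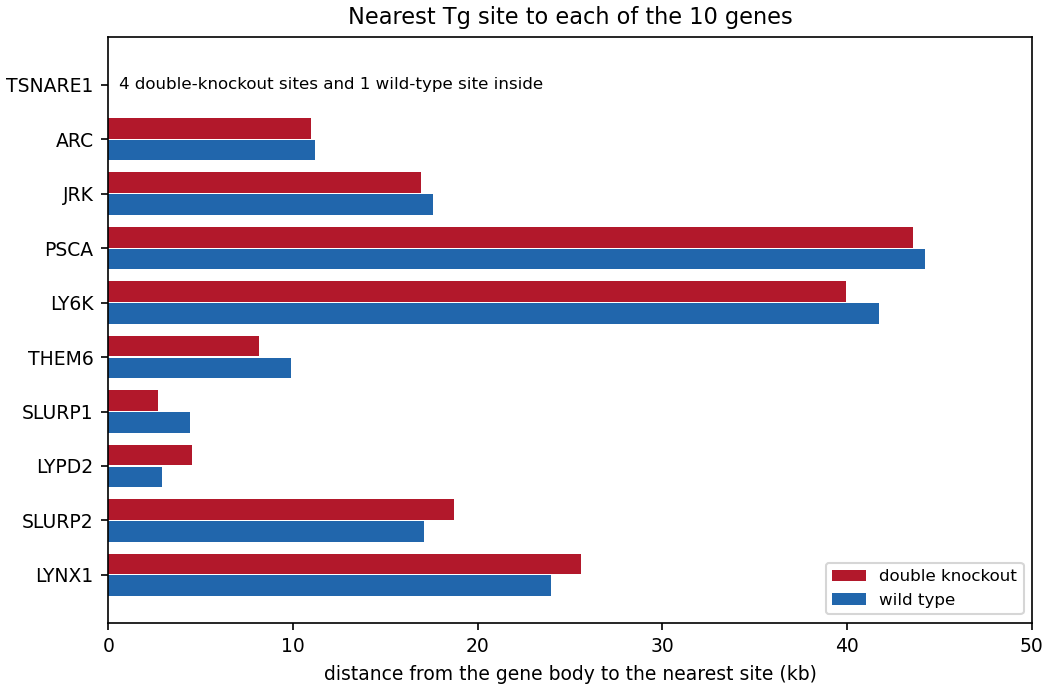
Distance in kb (horizontal axis) from each of the 10 genes to the nearest double-knockout site (red, upper bar) and wild-type site (blue, lower bar). TSNARE1 holds sites in both lists, SLURP1 and LYPD2 lie within 5 kb of one, and PSCA and LY6K lie about 40 kb or more from any.

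Across the LY6/uPAR family, 4 of 31 genes held a double-knockout site (12.9%, exact 95% binomial interval 3.63% to 29.8%) and 3 of 31 a wild-type site (9.68%, 2.04% to 25.8%). The intervals hold the shares of all protein-coding genes, 14.0% and 5.88%. The median length of the family's genes is 5.49 kb. The intervals also hold the shares of protein-coding genes of at most 30 kb, 5.98% and 2.31%. None of the 13 members on chromosome 8, 8 of them in the window, held a site. Short genes without a site are usual in both lists, so this is no result about these members. The genes with sites were LYPD8 with 3 double-knockout and 1 wild-type site, LYPD6B with 2 and 1, PLAUR, the urokinase receptor gene, with 1 and 1, and TEX101 with 1 and 0. PLAUR and TEX101 lie on chromosome 19.

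Among 17 genes of syntaxins and TSNARE1, 4 held a double-knockout site (23.5%, exact 95% binomial interval 6.81% to 49.9%) and 3 a wild-type site (17.6%, 3.80% to 43.4%). These intervals too hold the shares of all protein-coding genes, 14.0% and 5.88%. TSNARE1 was in the list by choice, and without it 3 and 2 of 16 held a site. Besides TSNARE1 these were STX18 with 1 site in each list at different places, STX3 with 1 shared site, and STX8 with 1 double-knockout site only. STX3 is a syntaxin of apical membranes in epithelia. Its shared site had 26 double-knockout and 14 wild-type reads, not scaled for depth.

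Above LYNX1, towards the chromosome end, 222.1 kb held 5 double-knockout and 3 wild-type sites, none in a protein-coding gene. The window's part nearest to LY6D and GML, also of the LY6 family, had shared sites of 25 and 24 reads in the double knockout and 15 reads each in wild type. An unshared wild-type site of 256 bp and 15 reads (142802914 to 142803169) lay 5.32 kb from the nearer of them, with a deposited fold of 6.54. CYP11B1 and CYP11B2, which encode the last enzymes of cortisol and aldosterone synthesis, held no site. Between them the double-knockout list had its site with the fewest reads in the window, 8 (142894384 to 142894672). The last 182.5 kb of the window had 3 double-knockout sites and no wild-type site, and 1 of these lay in LY6E-DT, a non-coding transcript beside LY6E.

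Sharing between the lists was close to that of the lists as wholes. Of the double-knockout sites of the window, 10 of 31 (32.3%, exact 95% binomial interval 16.7% to 51.4%) overlapped a wild-type site by at least 1 bp, against 28.3% of the whole list. Of the wild-type sites, 10 of 13 (76.9%, 46.2% to 94.96%) overlapped a double-knockout site, against 75.3% of the whole list. The 3 unshared wild-type sites lay 1.22, 1.26 and 5.32 kb from the nearest double-knockout site. The 21 unshared double-knockout sites lay 1.22 to 172.5 kb from the nearest wild-type site, median 32.2 kb.

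At none of the shared sites could a difference in reads between genotypes be told from counting error, once depth was taken into account. The lowest background of the double-knockout list was 1.69 times that of the wild-type list. This was taken as the depth ratio, and double-knockout reads were divided by it. At the 10 shared sites the ratio of scaled double-knockout to wild-type reads then had a median of 0.913, with a range of 0.616 (TSNARE1) to 1.34 (the site above ARC). Over all 2776 shared pairs the median was 0.940. The ratio was below 1 at 8 of 10 sites, against 58.2% of all pairs. The exact 95% counting interval of the ratio held 1 at each of the 10 sites. The intervals are wide, so this does not show that the reads were equal. Reads were those at the summit of each list's own site, and summits of a pair lay 32 to 664 bp apart. The intervals do not cover that difference in position.

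The TSNARE1 site had 14.8 scaled double-knockout reads (9.56 to 21.8) against 24 wild-type reads (15.4 to 35.7), a ratio of 0.616 with an interval of 0.337 to 1.13. The site above ARC had 14.8 scaled double-knockout reads (9.56 to 21.8) against 11 wild-type reads (5.49 to 19.7), a ratio of 1.34 (0.637 to 3.02). At the LINC00051 site the ratio was 1.18 (0.602 to 2.43). The other 7 ratios lay between 0.788 and 0.985. With 11 to 24 wild-type reads a site, differences within these intervals were not detectable at this depth.

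**Figure D3:**
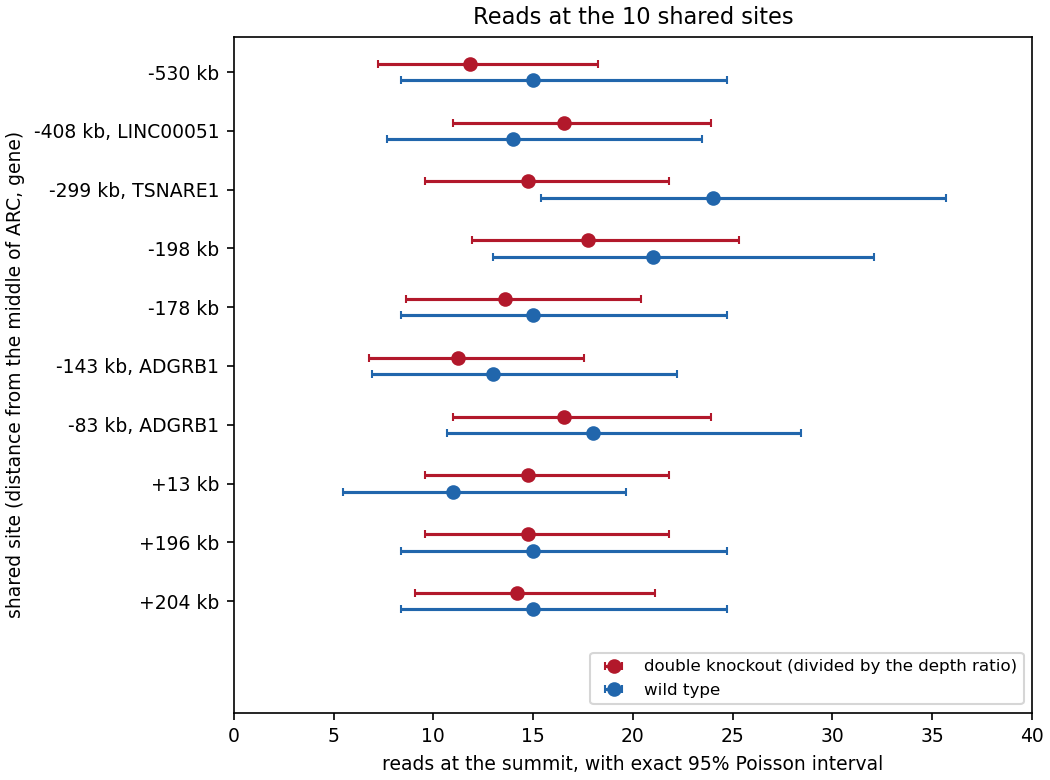
Reads at the summit (horizontal axis) of the 10 shared sites, ordered by distance from the middle of ARC, for the double knockout after division by the depth ratio of 1.69 (red, upper) and for wild type (blue, lower). Bars are exact 95% Poisson intervals; the intervals of the genotypes overlap at every site, and the points are farthest apart at TSNARE1.

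Shared sites were wide and unshared sites narrow. In the double knockout the 10 shared sites had a median width of 1035 bp (441 to 1636) and the 21 unshared sites 356 bp (274 to 872). In wild type the 10 shared sites had a median of 727 bp (415 to 1466) and the 3 unshared sites 256 bp (243 to 391). Over the whole lists the medians were 590 and 364 bp for shared and unshared double-knockout sites, and 419 and 295 bp for shared and unshared wild-type sites. The shared sites of the window were thus wider than shared sites at large, and unshared ones were close to theirs.

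Sites of at least 1 kb were 5 of 31 in the double knockout (16.1%, against 5.81% of the whole list). In wild type they were 1 of 13 (7.69%, against 4.53%). All of them were shared, as were 456 of 545 such double-knockout sites and 167 of 167 such wild-type sites of the whole lists. The double-knockout site was the wider one at 9 of the 10 shared sites, and the exception was the first site of ADGRB1. Over all shared pairs the double-knockout site was wider in 83.2%. Summits of a pair lay 32 to 664 bp apart, median 182 bp, against a median of 91 bp over all pairs. The part of site width in this distance was not tested.

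**Figure D4:**
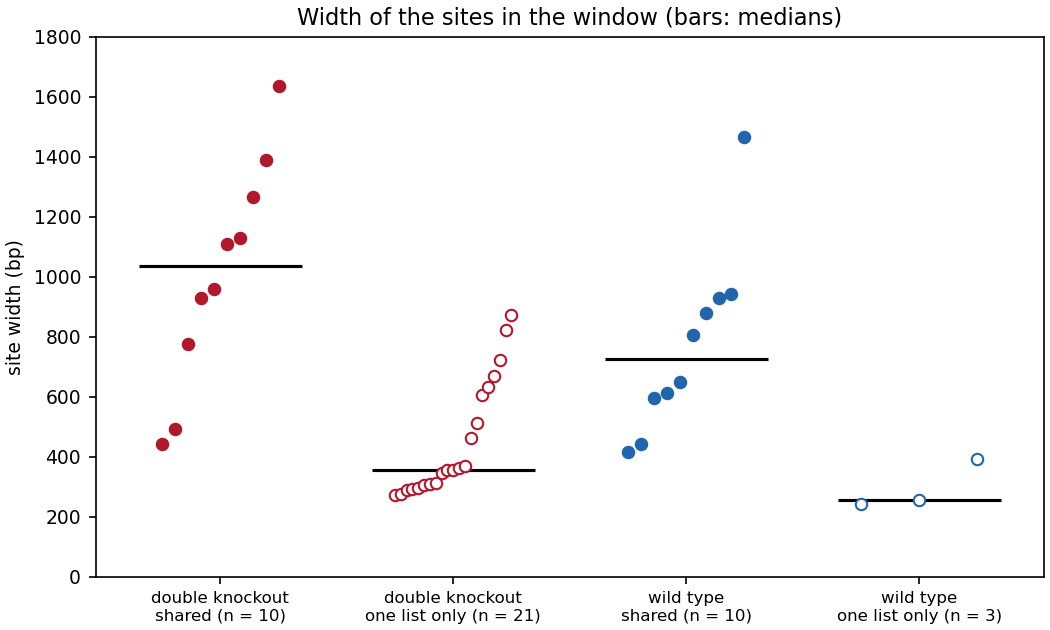
Width in bp (vertical axis) of each site of the window, by list and by whether it overlaps a site of the other list; each point is a site and each bar a median. Shared sites reach 1636 bp in the double knockout and 1466 bp in wild type, while no unshared site exceeds 872 bp.

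The unshared double-knockout sites had fewer reads than the shared ones, with overlapping ranges. Their reads, scaled to wild-type depth, ranged from 4.73 to 14.8 with a median of 9.46, and those of the shared double-knockout sites from 11.2 to 17.7 with a median of 14.8. Without scaling, the medians of unshared and shared sites were 16 and 25 reads in the window. In the whole double-knockout list they were 15 and 23, so this difference is not particular to the window. The wild-type site of the window with the fewest reads had 11, and 11 of the 21 unshared double-knockout sites fell below that after scaling. The whole wild-type list went down to 6 reads, so a value below 11 does not mean that a site was too weak to be listed. The median wild-type site of the window had 15 reads, which 0 of the 21 unshared and 3 of the 10 shared double-knockout sites reached. After division by the ratio of depth alone (1.61), 1 of the 21 and 6 of the 10 did.

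Numbers of sites in the window depended strongly on the threshold. As listed, the double knockout had 31 sites (exact 95% Poisson interval 21.1 to 44.0) and wild type 13 (6.92 to 22.2). These intervals cover counting error only, not the choice of the window by its double-knockout sites. With double-knockout reads and background divided by 1.69, p recomputed and both lists kept above the lowest wild-type −log10 p (3.79), there were 28 double-knockout and 13 wild-type sites. Above the median wild-type −log10 p (8.46) there were 7 and 8, and with division by the ratio of depth alone there were 9 and 8. Above that median the lists thus differed by 1 site in either direction, depending on the divisor. In the whole lists the double-knockout to wild-type ratio of site numbers was 2.34 at the lower threshold, and at the upper one 1.11 or, by depth alone, 1.27.

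Among 3101 windows of 1 Mb, the window ranked 2 by double-knockout sites and 17 by wild-type sites, tied with others in wild type. After division by 1.69 and above the median wild-type −log10 p it ranked 13 by double-knockout and 16 by wild-type sites, and by depth alone 9 and 16. On chromosome 8 it ranked 1 in the double-knockout list and shared the first place in wild type, with 10.1% of the chromosome's double-knockout sites and 11.6% of its wild-type sites. The adjoining window below it held 20 double-knockout and 13 wild-type sites. The window above it, with LY6E, LY6S and LY6L, held 7 and 2. The last annotated gene of the chromosome ends 2.06 Mb beyond the window.

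**Figure D5:**
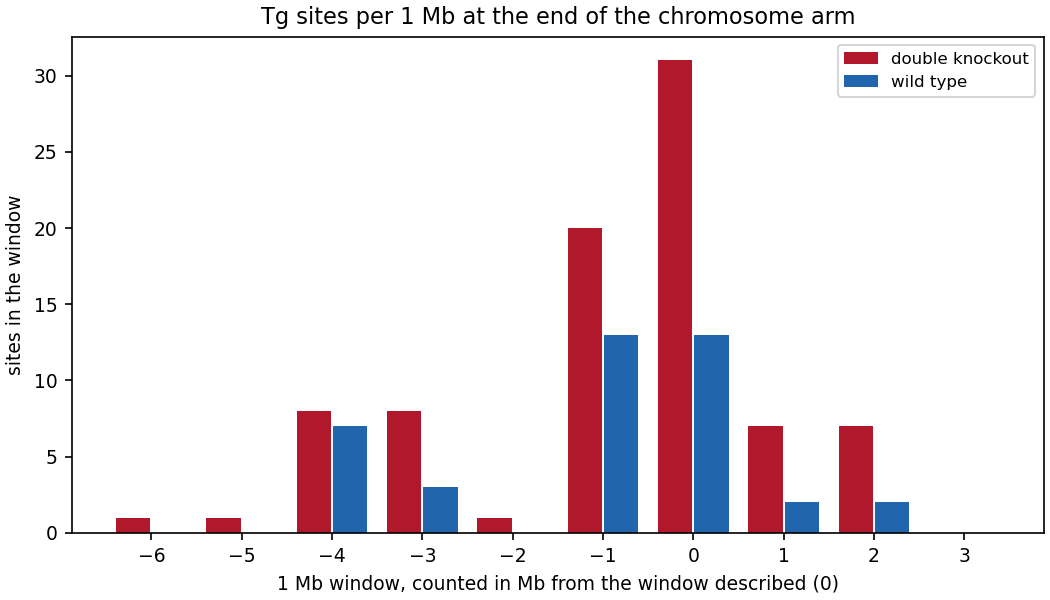
Sites per 1 Mb window (vertical axis) for the double knockout (red, left) and wild type (blue, right) over the last 10 windows of chromosome 8, numbered in Mb from the described window (0); the last one is only partly covered by annotated sequence. The described window and the one below it hold 31 and 20 double-knockout sites, and every other one shown holds 8 or fewer.

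Spacing within the window was closer than in the lists as wholes, as its choice by site number implies. Neighbouring double-knockout sites lay a median of 24.8 kb apart (1.09 to 118.3 kb) and wild-type sites 44.7 kb (5.30 to 121.8 kb), against 95.1 and 190.3 kb over all chromosomes. At the window's lower edge the first double-knockout site inside had 19 reads and lay 8.16 kb from the edge, and the last one outside had 16 reads and lay 5.26 kb away, in the non-coding gene LOC124902047. In wild type these had 15 and 14 reads. At the upper edge the double-knockout site inside had 20 reads, 9.64 kb from the edge, and the next one outside 16 reads, 167 kb away. Both wild-type sites at that edge had 15 reads, the one inside 182.8 kb and the one outside 182 kb from it.

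The local background at the sites was somewhat above that of the lists. Relative to the lowest background of the list, it had a median of 2.55 at the double-knockout sites of the window, against 2.12 in the whole list, and of 2.69 at the wild-type sites, against 2.35. This background is the caller's and its source, input or local reads, is not given in the sources used here. The copy number of this arm in these cells was not analysed here, and its part in the site numbers was not tested.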

How the data were processed

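Tg sites were mapped by DPC-Seq, and the authors deposited 1 site list per genotype, placed by the genotype word that its name shares with the sample titles. The submitters' processing notes name Bowtie2, MACS2, bedtools, deepTools and hg38; their versions, roles and settings, and the way libraries were combined, are not given in any source used here. Per the values, each row of a deposited list holds a score (10 times −log10 q, rounded down), the fold enrichment as a ratio, −log10 p, −log10 q and the summit. Starts were made 1-based.

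The reads under each summit and the local background were computed back from the fold (reads plus 1 over background plus 1) and −log10 p (Poisson tail), within 0.001 at 100% of sites; reads ranged from 6 to 452 (double knockout) and 6 to 405 (wild type). The recovery was tested on simulated data. Total reads per library are unknown. The lowest backgrounds, 1.25 and 0.740, gave the depth ratio of 1.69, or 1.61 per base pair of the narrowest site. Genes came from RefSeq GRCh38.p14, without exons or strand. Python 3.11.15, scipy 1.17.1 and pandas 2.3.3 were used. No test was run, since each genotype has 1 list. The window, its genes and the gene lists were chosen with earlier results of these data known. Named genes are the 10 genes, others of the window with a site, the genes at its edges, listed family members and the 3 genes of like length whose site counts are nearest to TSNARE1. Genes between these that hold no site are named to describe gaps. No sequence is printed for this chromosome.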

Additional observations from a re-analysis of the deposited data

How the results depend on the processing

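Of 36 recomputed values, 29 stayed within the limits set for them (counts within 1.5 times) and 7 moved. With double-knockout reads divided by the depth ratio and both lists above the wild-type median −log10 p, the window held 7 double-knockout and 8 wild-type sites; divided by the ratio of depth alone, an alternative chosen after seeing the data, it held 9 and 8. By depth alone, also added later, 1 unshared and 6 shared double-knockout sites reached the wild-type median of 15 reads, in place of 0 and 3. With −log10 q of at least 3, TSNARE1 held 2 double-knockout sites in place of 4, which follows from fewer sites being kept, and the window held 26 double-knockout and 10 wild-type sites. Moving the window by 250 kb, also chosen after seeing the data, gave 36 and 16 sites downwards and 22 and 12 upwards. The median reads ratio was 0.913, 0.962 by depth alone, and 0.906 with overlap of at least 50% of both sites. No paired analysis was possible because the lists hold no values per library, and leaving out a replicate was not possible for the same reason. With 11 to 24 wild-type reads a site, counting error limits every ratio.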

Other observations

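The densest 1 Mb of the double-knockout list in this region did not coincide with the window. Among windows moved down by 250 kb, the one here held 36 double-knockout and 16 wild-type sites and had the most double-knockout sites of all windows in that frame. In wild type 6 windows held more. Moved up by 250 kb, the window held 22 double-knockout and 12 wild-type sites, and 9 windows of that frame held more double-knockout sites and 20 more wild-type sites. The window moved down covers TSNARE1, ADGRB1, ARC and the genes up to SLURP1, ends just short of LYPD2, and was chosen after the values were seen.

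In the described window itself the bins of 100 kb with the most double-knockout sites were the one from 142100001, with 6 double-knockout and 0 wild-type sites, and the one from 142400001, with 5 and 3. The bin from 142800001 held 3 and 3.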
